A study of Homo sapiens with 52 samples.

Results

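The genes followed here are 10 immediate early genes of 4 small families, EGR1, EGR2, EGR3, NR4A1, NR4A2, NR4A3, IER2, IER3, KLF4 and KLF6. They were chosen by symbol, and all 10 were found among the 59408 genes listed in each of the 25 distinct tables of the series. The cells are WI-38, a human fibroblast line from lung that stops dividing after enough passages, and mRNA was sequenced. Young wild-type cells spent 24 h in 1 of 3 agents. SDS, at 0.009%, is a detergent and damages the plasma membrane, KCl, at 75 mM, depolarizes cells and raises their calcium, and doxorubicin (DXR), at 250 nM, causes DNA breaks. They were then washed and kept for up to 16 days, and the senescent cells that follow are called PMD-Sen after SDS, Ca2+-Sen after KCl and DDR-Sen after DXR. Day 0 is the end of the 24 h, and later samples were taken daily to day 4 and then on days 6, 8 and 16. Young untreated cells, which received none of the 3 agents, and replicatively senescent cells (RS), passaged until they stopped dividing, complete the 26 groups. The untreated cells are 1 group with no day, and no mock-treated or day-matched untreated group is listed. The paper describes a change of medium every 2 days after the SDS wash. Washing and feeding thus cannot be told apart from the agents in comparisons with untreated cells, or from time in those between days. Each group has 2 libraries, and the study describes them as independent samples of this single cell line.

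Immediate early genes are transcribed within minutes of a stimulus and need no new protein to be switched on. The EGR proteins are zinc finger factors made after growth factor, MAP kinase and calcium signals, largely through serum response factor (SRF) bound at CArG boxes. The NR4A proteins are orphan nuclear receptors switched on by calcium, cAMP and stress, in large part through CREB bound at the cAMP response element. KLF4 and KLF6 are Krüppel-like zinc finger factors tied to growth arrest and to injury, and IER2 and IER3 are small proteins of the same early response, IER3 being linked to survival under stress. In fibroblasts all of these are best known for a transient peak after serum or wounding, so samples taken hours to days after an insult show what remains of the response, or a later rise, and not the first peak.

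To show the elements these families are known for, the 250 bases before the start site were read from the RefSeq promoter table of build GRCh38.p14, where 10 windows matched 7 of the 10 members. EGR3, NR4A2 and IER3 are not shown. Both strands were searched for the CArG box, for TGACG, the short core of the cAMP response element, and for the whole element TGACGTCA, within which every TGACG match is also counted. Capitals in the following lines mark CArG boxes in EGR1 (chr5:138465229-138465478, plus strand) and in the third window of EGR2 (chr10:62816367-62816616, minus strand), and TGACG or its reverse complement in NR4A3 (chr9:99821635-99821884, plus strand).
EGR1: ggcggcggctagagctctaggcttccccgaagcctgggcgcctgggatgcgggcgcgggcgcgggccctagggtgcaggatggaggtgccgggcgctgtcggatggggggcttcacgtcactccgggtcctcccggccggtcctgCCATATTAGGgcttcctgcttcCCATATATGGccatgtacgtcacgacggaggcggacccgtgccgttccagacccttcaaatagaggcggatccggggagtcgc
EGR2: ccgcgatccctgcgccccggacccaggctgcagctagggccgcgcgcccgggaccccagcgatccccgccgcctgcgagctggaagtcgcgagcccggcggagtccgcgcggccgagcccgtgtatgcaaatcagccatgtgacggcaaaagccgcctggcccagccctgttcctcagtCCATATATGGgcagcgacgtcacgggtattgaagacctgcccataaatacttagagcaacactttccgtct
NR4A3: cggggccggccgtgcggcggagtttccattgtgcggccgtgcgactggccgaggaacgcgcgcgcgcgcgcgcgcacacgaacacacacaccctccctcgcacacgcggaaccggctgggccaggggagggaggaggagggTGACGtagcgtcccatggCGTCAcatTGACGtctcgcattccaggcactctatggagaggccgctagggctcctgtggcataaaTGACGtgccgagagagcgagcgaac
EGR1 held 2 CArG boxes, starting 105 and 83 bases before the start site, and EGR2 held 1 in this window and none in its other 2 windows. At least 1 CArG box stood in 1.16% and at least 2 in 0.0313% of the 35116 windows of all genes. The NR4A3 window held 4 TGACG matches, a number reached in 0.236% of all windows, while neither NR4A1 window held one. At least 1 TGACG stood in 21.2% of all windows, and among the members also in EGR1, EGR2, IER2 and KLF4. The whole element TGACGTCA, present in 1.65% of all windows, stood in none of the members' windows. A match is a run of letters and not a measured binding site.

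Levels are given as normalized counts, which are the whole reads of a gene in 1 library divided by the size factor of that library, on 1 scale for all 52 libraries. The reads were recovered from the deposited tables, and a library is named the deeper or the shallower of its group because its replicate number could not be recovered. In units of 1e6 reads a library held 14.4 to 52.5 recovered reads (median 27.4), and the untreated libraries, at 17.8 and 14.4, were the shallowest, so their counting error enters each of the 25 comparisons. Tests used limma's voom over all 52 libraries, fold changes are on the log2 scale with their standard error (SE), and a gene was called where the p adjusted over all 15625 tested genes was under 0.05. IER3 was too low to be tested, which leaves 9 tested members. The fibroblast markers COL1A1, COL3A1, VIM, THY1, PDGFRB, DCN and LUM were high in all libraries, COL1A2 was not recovered, and markers of other cell types were low but not absent. Of the epithelial markers EPCAM was at 0 in 0, CDH1 in 7 and KRT5 in 47 of the 52 libraries, with highest levels of 23.5, 16.2 and 2.2. Of the immune markers CD68 was at 0 in 10, PTPRC in 15 and CD3E in 42 libraries, with highest levels of 8.34, 38.5 and 6.95. Of the endothelial markers VWF was at 0 in 0, PECAM1 in 2 and CDH5 in 38 libraries, with highest levels of 136, 164 and 3.44. The part of such cells in the results was not tested. The 2 libraries of each group differed by more than sampling noise, with a chi-square per gene of at least 5.35.

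The share of all tested genes called against untreated cells is the background for the members. It was 49.5%, 24.7%, 17.3%, 15.6%, 19.9%, 24.5%, 22.4% and 39.2% in PMD-Sen, in the order of the 8 days. In Ca2+-Sen it was 56.4%, 12.8%, 3.37%, 11.2%, 15.2%, 21.8%, 38% and 12.5% on the same days. In DDR-Sen it was 37.7%, 25.6%, 15.4%, 17.4%, 21.6%, 30.8%, 31.1% and 42.3%, and in RS it was 45.4%. The share of members called was below this in each comparison except days 3 and 4 of PMD-Sen. Of the 225 tests of 9 members in 25 comparisons, 8 were called higher and 14 lower, against 12.2% higher and 13.8% lower of all tests over all genes. All 25 comparisons share the same 2 untreated libraries.

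**Figure D1:**
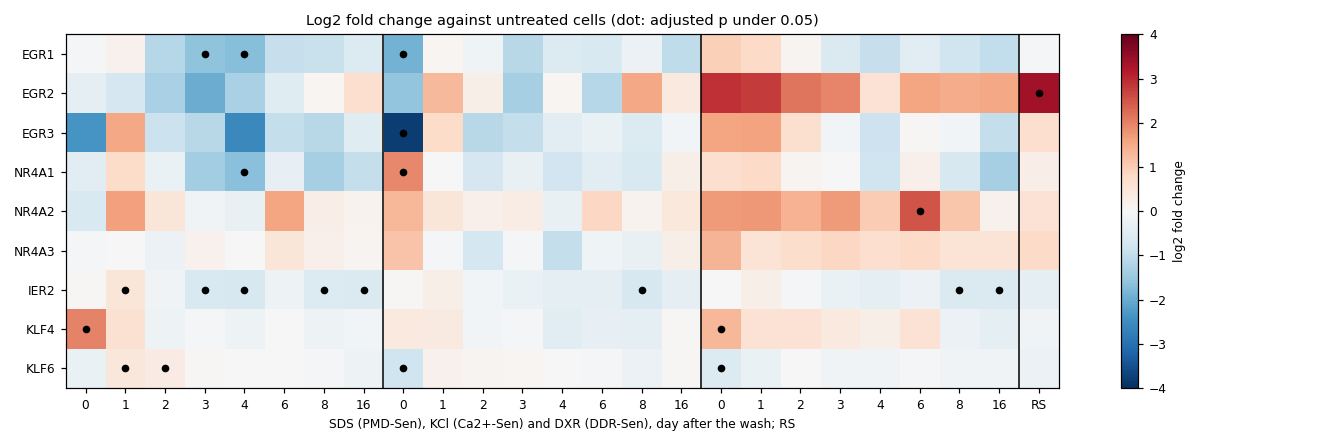
Log2 fold change (colour) of the 9 tested members (rows) against untreated cells on each day of the 3 inducers and in RS (columns). Dots mark an adjusted p under 0.05 and stand mostly on day 0, in the IER2 row and on days 3 and 4 of PMD-Sen.

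On day 0 the 3 inducers left the families at different levels. KLF4 rose in PMD-Sen and in DDR-Sen, NR4A1 rose in Ca2+-Sen, and EGR1 and EGR3 fell in Ca2+-Sen. KLF6 fell in Ca2+-Sen and in DDR-Sen. No other tested member was called on this day. Thus 1 of 9 members was called in PMD-Sen (49.5% of all genes), 4 in Ca2+-Sen (56.4%) and 2 in DDR-Sen (37.7%). Each of these shares of members was below that of all genes.

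**Figure D2:**
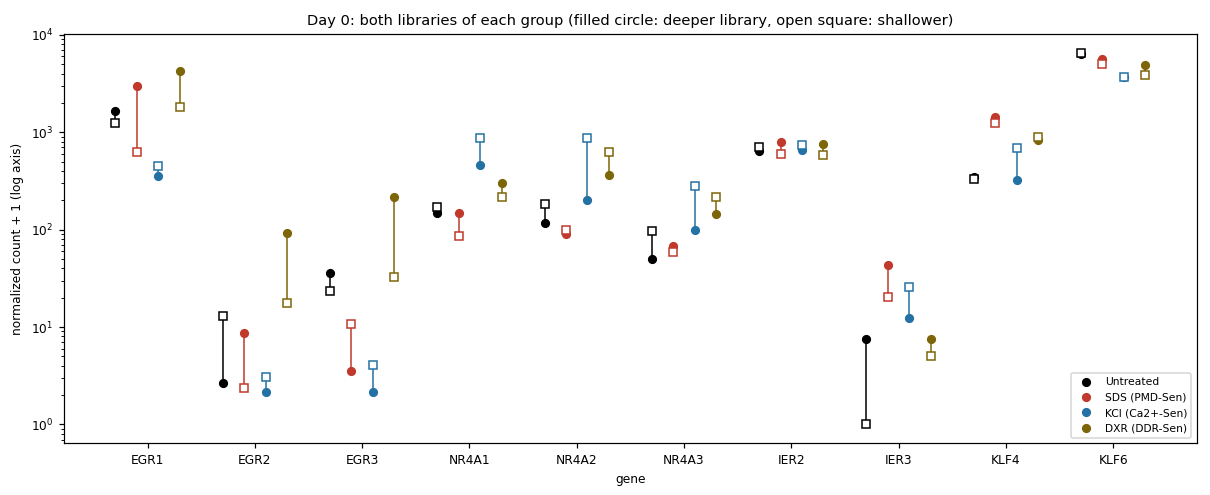
Normalized count plus 1 (log axis) of the 10 members (x axis) in untreated cells and on day 0 of each inducer, with the deeper library as a filled circle and the shallower as an open square. The EGR1 libraries of PMD-Sen stand at 2950 and 629, either side of both untreated libraries, while both KLF4 libraries of PMD-Sen and of DDR-Sen stand above the untreated ones.

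EGR1, the best known of the EGR factors and an early activator of wound and growth genes, stood at 1655 and 1249 in the untreated libraries. After KCl it stood at 352 and 451, both below both untreated libraries, a fall of 3.72-fold (log2 fold change -1.90, SE 0.49, adjusted p = 0.00142). That call was kept when each library was left out in turn, with a highest adjusted p of 0.0332. After SDS the deeper library held 2950 and the shallower 629, so the pair enclosed the untreated level and the fitted change was -0.07. Without the deeper SDS library EGR1 was called lower than untreated (-1.20, adjusted p = 0.0455) and without the shallower one higher (1.02, adjusted p = 0.0270). Of the 4061 genes of like level in these libraries, 0.0739% differed more between them. After DXR the libraries held 4247 and 1802, both above untreated, and the change of 0.94 was not called.

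EGR3, a close relative of EGR1 that is switched on by the same signals, was at 34.6 and 22.2 in untreated cells, from 21 and 11 reads. KCl left it at 1.13 and 3.11, from 2 and 3 reads, a fall of 13.9-fold (log2 fold change -3.80, SE 1.45, adjusted p = 0.0263). That call ended without either KCl library or the deeper untreated library (adjusted p from 0.0749 to 0.197). SDS left it at 2.54 and 9.67, also below both untreated libraries, and that change of -2.37 was not called (adjusted p = 0.149). In DDR-Sen the deeper library held 213 and the shallower 31.6, which lies between the untreated values.

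EGR2, the member best known from nerve myelination and T cell tolerance, was low throughout, with 869 reads over all 52 libraries. Its mean over the 26 groups, 13.7, passed the minimum of 10 for testing with the help of RS and day 0 of DDR-Sen, at means of 73.1 and 53.6. Calls of EGR2 that rest on its level in RS or in DDR-Sen are therefore not independent of this filter. The untreated libraries held 1 and 6 reads (levels 1.65 and 12.1). DXR gave 153 and 25 reads (90.4 and 16.8), SDS 6 and 1, and KCl 2 and 2. Only the DXR pair lay wholly above the untreated pair, and its log2 fold change of 2.93 (SE 1.20) just missed the threshold (adjusted p = 0.0532). Other scalings, no filter and limma-trend called this change (adjusted p from 0.00356 to 0.0490).

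NR4A1, also called Nur77, a receptor without a known hormone that calcium signals switch on, stood at 148 and 169 in untreated cells and at 458 and 872 after KCl. Both KCl libraries were the highest of all 52, and the rise was 3.79-fold (log2 fold change 1.92, SE 0.40, adjusted p = 0.000154). It was kept without each library in turn, and fell to 2.89-fold without the shallower KCl library. After DXR the libraries held 299 and 213, both above untreated, and after SDS 148 and 85.7, and neither change was called.

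NR4A2 and NR4A3, its 2 relatives, were also high in the shallower KCl library but less so in the deeper one. NR4A2, a factor best known in dopamine neurons, was at 199 and 861 after KCl against 115 and 181 in untreated cells. NR4A3 was at 99.1 and 279 against 49.4 and 94.7. In both genes the KCl pair lay above the untreated pair, yet the changes of 1.33 (SE 0.82, adjusted p = 0.170) and 1.13 (SE 0.57, adjusted p = 0.0902) were not called. After DXR, NR4A2 was at 360 and 622 and NR4A3 at 144 and 214, again above both untreated libraries and again not called (adjusted p = 0.0942 and 0.0520). SDS left NR4A2 at 88.8 and 98.1, the only group in which both libraries lay below both untreated ones.

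KLF4, one of the factors used to reprogram somatic cells and an inhibitor of the cell cycle, gave the clearest rise of the set. It stood at 347 and 330 in untreated cells, at 1444 and 1231 after SDS, and at 825 and 899 after DXR. The rise was 3.93-fold after SDS (log2 fold change 1.97, SE 0.28, adjusted p = 7.2e-07) and 2.53-fold after DXR (1.34, SE 0.28, adjusted p = 0.000275), and both calls were kept without each library in turn. After KCl the deeper library, at 325, lay just under the untreated pair and the shallower, at 692, above it.

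KLF6, a factor that activates TGF-beta genes after injury, was at 6283 and 6497 in untreated cells. It fell 1.74-fold after KCl, to 3672 and 3649 (log2 fold change -0.80, SE 0.11, adjusted p = 4.45e-07), and 1.46-fold after DXR, to 4890 and 3900 (-0.55, SE 0.11, adjusted p = 0.000212). Both calls were kept without each library in turn. The SDS libraries, at 5654 and 4992, also lay below the untreated pair, with a change of -0.26 that was not called.

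IER2 was not called on day 0. Its levels were 647 and 699 untreated, 789 and 601 after SDS, 655 and 746 after KCl, and 755 and 579 after DXR, with 95% intervals of the log2 fold change of -0.30 to 0.39, -0.28 to 0.37 and -0.33 to 0.30. IER3 was seen in 289 reads in all, and its untreated libraries held 4 and 0. On day 0 it had 33 and 14 reads after SDS (levels 41.9 and 19.4), 20 and 24 after KCl (11.3 and 24.9) and 11 and 6 after DXR (6.50 and 4.03). Both SDS and both KCl libraries lay above both untreated ones and the DXR pair did not. With no filter on low counts its adjusted p was 0.00814 for SDS and 0.0269 for KCl.

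The day 0 levels were next compared between inducers, where the untreated libraries play no part. Between PMD-Sen and DDR-Sen 8 of 9 members were called (57% of all genes tested), between PMD-Sen and Ca2+-Sen 6 of 9 (63.9%), and between Ca2+-Sen and DDR-Sen 6 of 9 (65.3%). The last 2 of these shares lie near their background.

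Of these calls, 6 were kept without each library in turn, in KLF4, NR4A1, EGR1, EGR3 and KLF6. KLF4 was 3.02-fold higher in PMD-Sen than in Ca2+-Sen (log2 difference 1.60, SE 0.21, adjusted p = 7.83e-08), with 1231 the lower SDS value and 692 the higher KCl value, and 1.93-fold higher without the deeper KCl library. NR4A1 was 5.23-fold lower in PMD-Sen than in Ca2+-Sen (-2.39, SE 0.41, adjusted p = 6.47e-06) and 2.36-fold higher in Ca2+-Sen than in DDR-Sen (1.24, SE 0.26, adjusted p = 0.000101). EGR1 was 7.15-fold lower in Ca2+-Sen than in DDR-Sen (-2.84, SE 0.44, adjusted p = 1.56e-06), and 4.63-fold or 10.9-fold lower without the deeper or the shallower DXR library. EGR3 was 41.5-fold lower there (-5.38, SE 1.29, adjusted p = 0.000553), a size that rests on 5 reads in Ca2+-Sen. It was 15.3-fold without the deeper DXR library, 102-fold without the shallower and 23.9-fold without the deeper KCl library. KLF6 was 1.45-fold higher in PMD-Sen than in Ca2+-Sen (0.54, SE 0.11, adjusted p = 0.000114).

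Each of the remaining day 0 calls ended without at least 1 library. EGR1 was called higher in PMD-Sen than in Ca2+-Sen (log2 difference 1.83, adjusted p = 0.00123), and without the deeper SDS library the difference was 0.69 (adjusted p = 0.246). It was called lower in PMD-Sen than in DDR-Sen (-1.01, adjusted p = 0.0284), and without the shallower SDS library the sign turned (0.08, adjusted p = 0.858), while without the deeper DXR library the adjusted p was 0.486. EGR3 was 15.4-fold lower in PMD-Sen than in DDR-Sen (-3.94, SE 1.17, adjusted p = 0.00486), and without the deeper SDS library the adjusted p was 0.0692. EGR2 was lower than in DDR-Sen in PMD-Sen (-3.30, SE 1.20, adjusted p = 0.0197) and in Ca2+-Sen (-4.51, SE 1.26, adjusted p = 0.00243), and it was lost without either SDS library or the deeper DXR library in the first (up to 0.157) and without the deeper KCl library in the second (0.0593).

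All 3 NR4A genes were called lower in PMD-Sen than in DDR-Sen on day 0, with log2 differences of -1.15 for NR4A1, -2.32 for NR4A2 and -1.46 for NR4A3. In each of these called genes both SDS libraries lay below both DXR libraries, and the share of all genes so separated is not given here. The NR4A1 call ended without the shallower SDS or the deeper DXR library (adjusted p up to 0.216), and those of NR4A2 and NR4A3 without either SDS or the shallower DXR library (up to 0.114 and 0.0971). NR4A2 and NR4A3 were also called lower in PMD-Sen than in Ca2+-Sen (-1.94, adjusted p = 0.0479, and -1.22, adjusted p = 0.0426), and without the shallower KCl library the adjusted p was 0.264 and 0.282. Both were also lost without either SDS library, and the NR4A2 call, close to the threshold, without 40 of the 52 libraries in all. KLF4 was 1.55-fold higher in PMD-Sen than in DDR-Sen (0.63, adjusted p = 0.00490, and 0.0782 without the deeper SDS library) and 1.95-fold lower in Ca2+-Sen than in DDR-Sen (-0.96, adjusted p = 0.000131, and 0.199 without the deeper KCl library). KLF6 differed by 0.28 and -0.26 in the same comparisons (adjusted p = 0.0303 and 0.0398), and the first ended without the deeper SDS or the shallower DXR library (up to 0.439) and the second without either KCl or the deeper DXR library (up to 0.553).

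Within 1 day of the wash the levels moved again. Between days 0 and 1 of PMD-Sen 6 of 9 members were called (53.5% of all genes), 5 higher and 1 lower. In Ca2+-Sen 5 of 9 were called (61.7%), 3 higher and 2 lower, and in DDR-Sen 1 of 9 (25.2%).

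**Figure D3:**
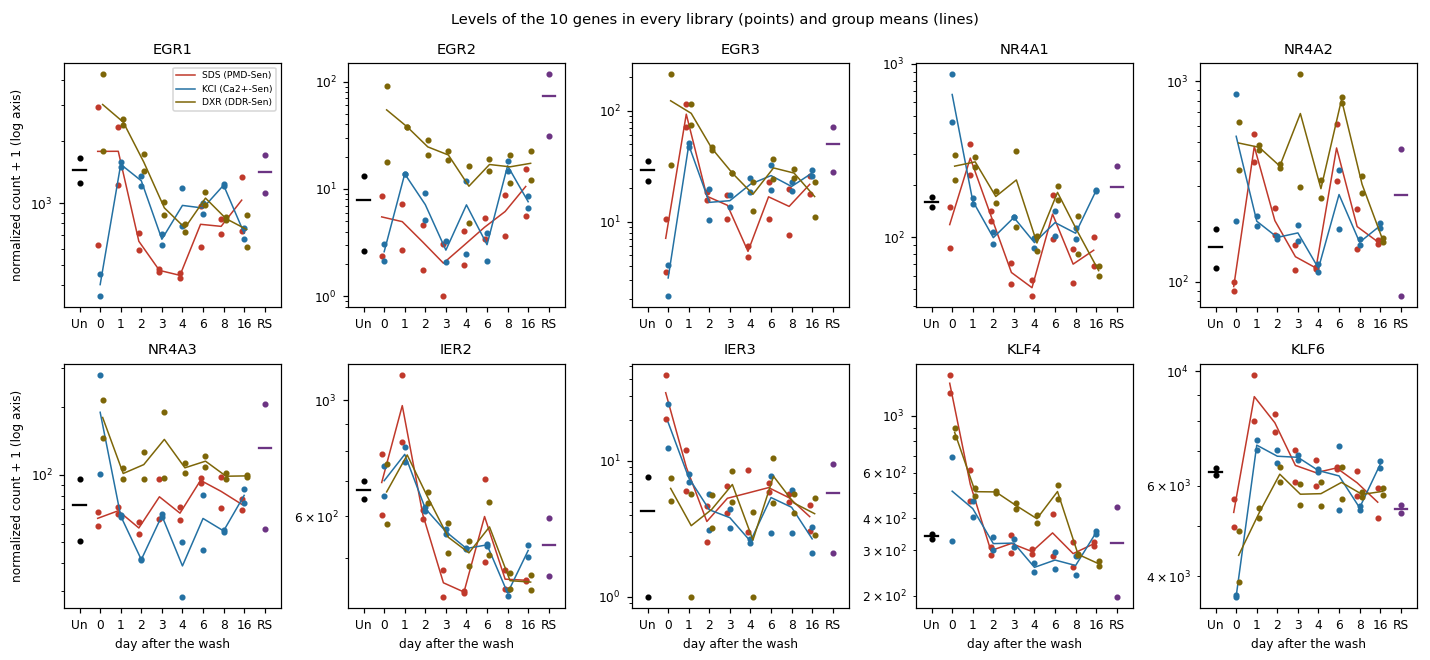
Normalized count plus 1 (log axis) of the 10 members in untreated cells (Un), on the sampled days after the wash and in RS, with a point for each library and a line through the group means. EGR3 in PMD-Sen goes from 2.54 and 9.67 on day 0 to 70.4 and 114 on day 1, and the IER2 libraries of all 3 inducers on days 8 and 16 lie below the untreated ones.

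In PMD-Sen, EGR3 rose 15-fold from day 0 to 70.4 and 114 on day 1 (log2 change 3.91, SE 1.19, adjusted p = 0.00624, and 0.0798 without the deeper day 0 library). NR4A2 rose to 396 and 547 (2.26, SE 0.87, adjusted p = 0.0284) and NR4A1 to 226 and 344 (1.21, SE 0.44, adjusted p = 0.0220). Both rises ended without the shallower library of either day, and that of NR4A2 also without the deeper day 0 library (adjusted p from 0.0704 to 0.199). The change of EGR1 was 0.24 and turned with the day 0 library left out, 1.38 without the deeper (adjusted p = 0.0163) and -0.85 without the shallower (adjusted p = 0.0496). On day 1 EGR3, NR4A1 and NR4A2 lay above both untreated libraries, and none of these was called against them. KLF4 fell in the same interval, to 467 and 616 (-1.36, SE 0.22, adjusted p = 4.56e-06), while KLF6 rose to 8010 and 9849, the highest level of that gene in the series (0.73, SE 0.11, adjusted p = 1.3e-06). These last 2 calls were kept without each library in turn. IER2 rose to 832 and 1117, its highest group (0.44, SE 0.15, adjusted p = 0.0120), a call that ended without the shallower library of day 0 or of day 1 (0.236 and 0.179).

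Against untreated cells 2 members were called on day 1 of PMD-Sen, KLF6 (log2 fold change 0.46, SE 0.11, adjusted p = 0.00221) and IER2 (0.49, SE 0.16, adjusted p = 0.0235). Without the shallower day 1 library they had adjusted p of 0.0709 and 0.227, and IER2 was also lost without either untreated library. In the shallower library of that group EGR1, EGR2, EGR3, NR4A1, NR4A2, NR4A3, IER2, IER3, KLF4 and KLF6 were all higher than in the deeper one. The share of all genes higher in that library is not given here. KLF6 remained called on day 2, at 8258 and 7631 (0.32, SE 0.11, adjusted p = 0.0418), and this call was lost without any 1 of the 4 libraries compared (up to 0.246).

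Between days 1 and 2 of PMD-Sen 4 of 9 members were called, all lower (15.5% of all genes in either direction). The same 2 day 1 libraries enter the changes from day 0, so these falls are not independent of those changes. EGR1 fell from 1221 and 2362 to 714 and 593 (log2 change -1.32, SE 0.42, adjusted p = 0.0278) and EGR3 from 70.4 and 114 to 14.6 and 17.5 (-2.39, SE 0.73, adjusted p = 0.0227). KLF4 fell to 287 and 310 (-0.81, SE 0.25, adjusted p = 0.0238) and IER2 to 615 and 591 (-0.64, SE 0.14, adjusted p = 0.00143). Without the shallower day 1 library the adjusted p was 0.264 for EGR1, 0.0959 for EGR3, 0.165 for KLF4 and 0.0515 for IER2, and the first 3 were also lost without either day 2 library.

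In Ca2+-Sen the members called on day 0 moved the other way by day 1. The same 2 day 0 libraries enter both comparisons with opposite sign and picked these members. The reversal is therefore not independent of the day 0 calls. NR4A1 fell from 458 and 872 to 155 and 167 (-1.90, SE 0.33, adjusted p = 8.82e-06), EGR1 rose from 352 and 451 to 1507 and 1587 (1.99, SE 0.46, adjusted p = 0.000403), and KLF6 rose from 3672 and 3649 to 7347 and 7033 (0.97, SE 0.11, adjusted p = 4.31e-09). These 3 calls were kept without each library in turn. EGR3 rose 23.1-fold to 45.8 and 50.5 (4.53, SE 1.34, adjusted p = 0.00419, and 0.0826 without the deeper day 0 library). NR4A3 fell to 63.7 and 64.6 (-1.19, SE 0.47, adjusted p = 0.0292), which was lost without the shallower day 0 library or either day 1 library (up to 0.270). On day 1 no member of Ca2+-Sen was called against untreated cells, nor did any have an unadjusted p under 0.05.

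In DDR-Sen KLF4 was the member called between days 0 and 1. It fell from 825 and 899 to 488 and 525 (-0.77, SE 0.21, adjusted p = 0.00569), a call lost without the shallower day 0 or the deeper day 1 library (0.0509 and 0.107). EGR1, at 2409 and 2560, EGR2, at 36.7 and 37.1, and EGR3, at 74.1 and 114, were still above both untreated libraries, and their libraries agreed more closely than on day 0. The fitted change of EGR3 from day 0 was 0.02, and it was called higher without the deeper day 0 library (1.46, adjusted p = 0.0161) and lower without the shallower one (-1.28, adjusted p = 0.00107). EGR1, EGR2 and EGR3 were not called against untreated cells on day 1 (adjusted p of 0.179, 0.0939 and 0.151).

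On both days 1 and 2 EGR2 and KLF6 were called between inducers, in comparisons with DDR-Sen only. No member was called between PMD-Sen and Ca2+-Sen on these days. On day 1, 2 of 9 members were called between PMD-Sen and DDR-Sen (34.7% of all genes) and 1 between Ca2+-Sen and DDR-Sen (26.5%). KLF6 was 1.66-fold higher in PMD-Sen (0.73, SE 0.11, adjusted p = 2.57e-06) and 1.36-fold higher in Ca2+-Sen (0.44, SE 0.11, adjusted p = 0.00255) than in DDR-Sen, at 5197 and 5433, and both calls were kept without each library in turn. EGR2 was 10.9-fold lower in PMD-Sen, at 2 and 4 reads, than in DDR-Sen, at 55 and 32 reads (-3.44, SE 1.19, adjusted p = 0.0240), which was lost without either SDS or the deeper DXR library (up to 0.260).

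On day 2, 4 of 9 members differed between PMD-Sen and DDR-Sen (24.4% of all genes). EGR1 was lower in PMD-Sen, at 714 and 593 against 1443 and 1731 (-1.27, SE 0.42, adjusted p = 0.0248), KLF4 was lower, at 287 and 310 against 500 and 511 (-0.76, SE 0.25, adjusted p = 0.0239), and EGR2 was lower, at 3.64 and 0.759 against 19.8 and 27.5 (-3.43, SE 1.28, adjusted p = 0.0489). KLF6 was higher, at 8258 and 7631 against 6098 and 6529 (0.33, SE 0.11, adjusted p = 0.0195). In these 4 called genes the libraries of the 2 groups did not overlap, and the share of all genes without overlap is not given here. The KLF6 call ended without the deeper library of either group (up to 0.177), and the other 3 without any 1 of the 4 libraries compared (up to 0.213).

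From day 3 on few members were called. EGR1 reached its lowest level after the wash on days 3 and 4 of PMD-Sen, at 464 and 479 and then at 459 and 433, the only groups other than day 0 of Ca2+-Sen in which both libraries were under 500. These levels were 3.08-fold and 3.25-fold below untreated (log2 fold changes -1.62, SE 0.52, and -1.70, SE 0.50, adjusted p = 0.0305 and 0.0155). Both calls ended without the deeper untreated library or either treated library (adjusted p from 0.0778 to 0.210). NR4A1 was at 44.5 and 55.6 on day 4 of PMD-Sen, 3.16-fold below untreated (-1.66, SE 0.60, adjusted p = 0.0467), a call near the threshold that was lost without any 1 of the 4 libraries compared (up to 0.207) and without 32 of the 52 libraries in all.

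NR4A2 was the only member called higher against untreated cells from day 3 on. On day 6 of DDR-Sen it was at 837 and 780, 5.68-fold above untreated (2.51, SE 0.81, adjusted p = 0.0175, and 0.163 and 0.0820 without the deeper and the shallower untreated library). On that day NR4A2 was also high in PMD-Sen, at 316 and 612, and in 1 library of Ca2+-Sen, at 182 and 360, and neither was called. On day 3 of DDR-Sen the 2 libraries held 295 and 1084, so the mean of that group is largely that of its shallower library. Over the 16 libraries of DDR-Sen NR4A2 ranged from 157 to 1084 (median 364), and in 7 of the 8 days both lay above both untreated libraries. The same held in 13 of all 25 groups, so it was not particular to DDR-Sen. These counts all use the same 2 untreated libraries, and the share of all genes so placed is not given here.

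IER2 was lower on late days under all 3 inducers, though not only there. Both its libraries lay below both untreated ones in 17 of the 25 groups, among them day 2 of Ca2+-Sen (625 and 614) and RS (595 and 461). All of these share 1 untreated pair, and the share of all genes so placed is not given here. IER2 was called lower in PMD-Sen on days 3, 4, 8 and 16, in Ca2+-Sen on day 8 and in DDR-Sen on days 8 and 16. On day 16 it was at 453 and 451 in PMD-Sen (log2 fold change -0.57, SE 0.17, adjusted p = 0.00906), at 529 and 502 in Ca2+-Sen (-0.38, adjusted p = 0.156) and at 463 and 434 in DDR-Sen (-0.58, SE 0.17, adjusted p = 0.00740). The falls were 1.46-fold to 1.57-fold in all 7 calls. The call on day 8 of Ca2+-Sen, at 432 and 423 (-0.65, SE 0.17, adjusted p = 0.00330), was kept without each library in turn, and the other 6 were lost without the shallower untreated library (adjusted p from 0.0533 to 0.160 over all libraries that ended one). On day 1 of DDR-Sen only the mean of the pair, 785, was recovered for IER2, and it enters the fit as 1 value.

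On day 16 IER2 was the only member called against untreated cells with voom. This made 1 of 9 members in PMD-Sen (39.2% of all genes) and 1 of 9 in DDR-Sen (42.3%). In Ca2+-Sen 0 of 9 were called (12.5%), and 2 members had an unadjusted p under 0.05. EGR1 lay at 730 and 1343 in PMD-Sen, 756 and 674 in Ca2+-Sen and 610 and 882 in DDR-Sen, and only the PMD-Sen pair reached the untreated range. Some other settings called NR4A1 lower than untreated on this day. In DDR-Sen a mean of at least 100 did so (log2 fold change -1.33, adjusted p = 0.0434), as did limma-trend with a pseudocount of 1 (-1.32, adjusted p = 0.00381). The latter also did so in PMD-Sen (-0.95, adjusted p = 0.0358). NR4A1 was at 66.8 and 99.2 in PMD-Sen, 187 and 183 in Ca2+-Sen, and 59.0 and 67.1 in DDR-Sen. It was 2.94-fold higher in Ca2+-Sen than in DDR-Sen (1.56, SE 0.51, adjusted p = 0.0222), the 1 member of 9 called in this comparison (27.8% of all genes), and the call was lost without any 1 of the 4 libraries (up to 0.144). No member was called in the other 17 same-day comparisons of inducers, where 7.69% of all tests were called and 19 member tests had an unadjusted p under 0.05. Nor was any in the other 17 day-to-day comparisons, with 4.81% of all tests called and 17 member tests under an unadjusted 0.05.

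In RS 1 of 9 members was called (45.4% of all genes). EGR2 held 55 and 166 reads, levels of 29.9 and 116. Its group mean was the highest of the series, though the pair overlapped with that of day 0 of DDR-Sen, at 90.4 and 16.8. Against 1.65 and 12.1 in untreated cells it was called higher (log2 fold change 3.35, SE 1.18, adjusted p = 0.0207). This rested on 7 untreated reads, and the call ended without either untreated library or the shallower RS library (0.0616 to 0.239). EGR3, at 70.2 and 27.3, overlapped the untreated pair. The 3 NR4A genes stood apart between the 2 RS libraries, at 255 and 134 for NR4A1, 458 and 83.4 for NR4A2 and 205 and 56.1 for NR4A3, and none was called. The RS libraries differed most of all pairs, with 4.6% of genes of at least 100 counts over 2-fold apart, where the other pairs had 0.41% to 1.97%. KLF4 differed in the same direction, at 441 and 197, and EGR1 at 1710 and 1120, while KLF6, at 5491 and 5312, did not.

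The spread between the libraries of a group was itself wide for some members. For each member and group the difference between the 2 libraries was ranked among genes within 2-fold of its level in the same pair. In 36 of 233 such cases (15.5%) the member was among the 5% of genes that differed most. EGR1 accounted for 9 of its 26 groups and NR4A2 for 8, while EGR3 accounted for 1 and KLF4 and KLF6 for 2 each. EGR1 differed 4.69-fold between the day 0 libraries of PMD-Sen and 2.36-fold between those of DDR-Sen, and NR4A2 differed 4.32-fold on day 0 of Ca2+-Sen and 3.68-fold on day 3 of DDR-Sen. All 3 NR4A genes were higher in the same library of the pair in 13 of 26 groups, and all 3 EGR genes in 12. Counts for other sets of 3 genes are not given here, so these have no background. On day 0 of DDR-Sen, however, the deeper library was the higher one for EGR1, EGR2, EGR3 and NR4A1 and the lower one for NR4A2 and NR4A3. How the cultures behind these libraries differed is not given in the sources used here, and its part in these values was not tested.

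**Figure D4:**
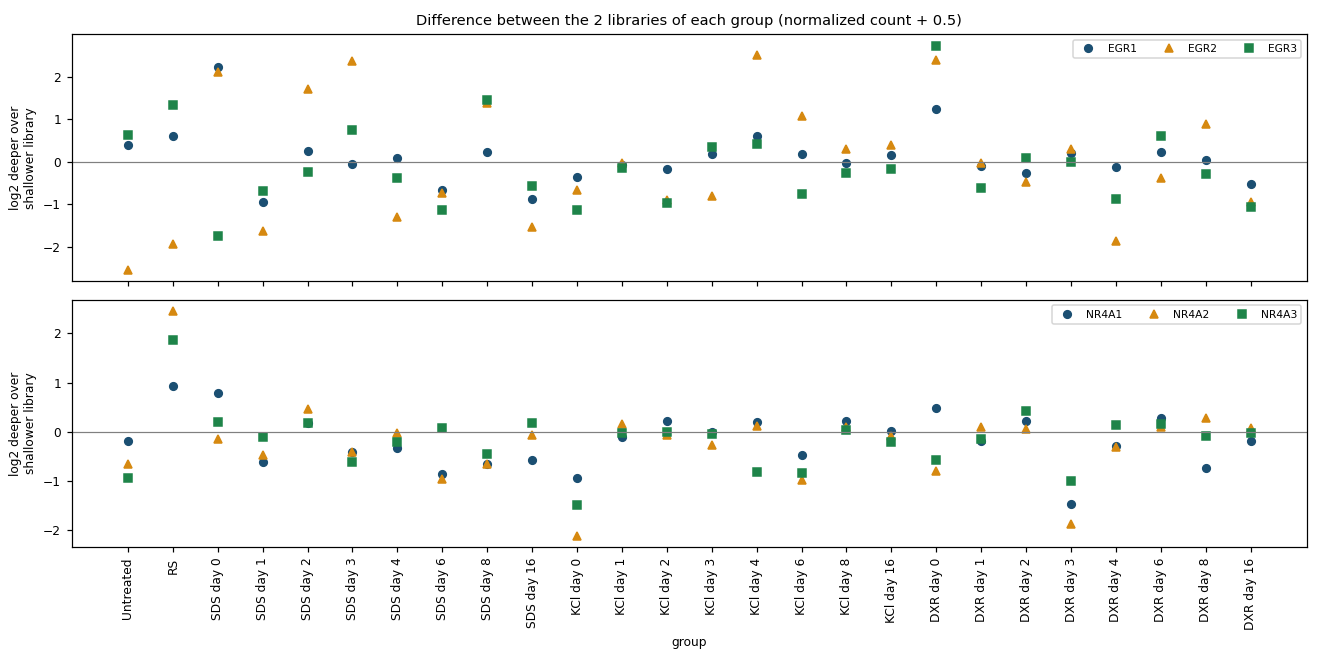
Log2 ratio of the deeper to the shallower library of each group (points, normalized count plus 0.5) for the EGR genes (top) and the NR4A genes (bottom), with 0 as a grey line. The 3 NR4A points lie together below 0 on day 0 of Ca2+-Sen and on day 3 of DDR-Sen and above 0 in RS.

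Whether the inducers differed at all over the 8 days was tested for each member with a moderated F over 16 same-day differences. Of 9 members, 8 were called, close to the 82.1% of all tested genes. KLF6 (F = 6.05, adjusted p = 2.47e-05), KLF4 (5.86, 3.3e-05), NR4A1 (5.04, 0.000125) and EGR1 (4.36, 0.000414) gave the highest values. EGR2 (3.53), EGR3 (2.61), NR4A2 (2.60) and NR4A3 (2.10) were called with adjusted p of 0.00205, 0.0146, 0.0149 and 0.0467. IER2 was the exception (F = 1.08, adjusted p = 0.431), with group means from 427 to 975.

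By mean level, days 0 and 1 of DDR-Sen and day 1 of PMD-Sen were highest for both EGR1 and EGR3. Day 0 of Ca2+-Sen and day 4 of PMD-Sen were lowest for both. The 2 genes parted on day 0 of PMD-Sen, where the EGR1 mean of 1789 stood level with the 1791 of its day 1. For EGR3 that group, at a mean of 6.11, was among the lowest. The top 3 groups of EGR3 overlapped in their libraries and do not differ beyond their spread. For EGR1 day 0 of DDR-Sen overlapped with the next 2 groups, which lay side by side without overlap, at 2409 and 2560 and at 1221 and 2362. NR4A1 and NR4A3 were highest on day 0 of Ca2+-Sen, and for NR4A3 that group overlapped with day 0 of DDR-Sen, next in order. KLF4 was highest on day 0 of PMD-Sen, above day 0 of DDR-Sen with no overlap. From the highest to the lowest group mean EGR1 spanned 7.53-fold, NR4A1 13.3-fold, NR4A2 8.65-fold, NR4A3 4.98-fold, KLF4 5.21-fold, KLF6 2.44-fold and IER2 2.28-fold. Over the 26 group means, on the log2 scale, Pearson's r was 0.77 between EGR1 and EGR3, 0.71 between NR4A2 and NR4A3, 0.72 between NR4A1 and IER2, and -0.64 between NR4A3 and KLF6. These are descriptions over groups that share a time course and the scaling of their libraries.

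Tested genes outside the members with the most similar course over the 26 group means were SETD6 (r = 0.85) and WDR35 (0.84) for EGR1, CERS6 (0.83) and NTN1 (0.81) for EGR2, and IRF3 (0.90) and WDR91 (0.84) for EGR3. For NR4A1 they were CSRNP1 (0.86), itself an immediate early gene, and HIVEP2 (0.86), for NR4A2 WWTR1 and ABHD2 (both 0.78), and for NR4A3 SLC12A4 (0.80) and IQGAP2 (0.79). For IER2 they were ZNF281 (0.92) and ITGA2 (0.91), for KLF4 ARFGEF2 (0.90) and MAFG-DT (0.89), and for KLF6 MAPKAP1 (0.91).

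Around the members, 3 lists of related genes were read on day 0, on day 16 and in RS. The share of all tested genes called higher and lower was 24.7% and 24.8% on day 0 of PMD-Sen, 26.4% and 30% in Ca2+-Sen and 17.5% and 20.2% in DDR-Sen. It was 18.2% and 21%, 5.56% and 6.94%, and 20% and 22.3% on day 16 in the same order, and 22.3% and 23.2% in RS.

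Other immediate early genes, such as FOS, JUN, ATF3 and MYC, were called higher more often than lower on day 0. Of 25 tested, 10 rose and 4 fell in PMD-Sen, 9 rose and 5 fell in Ca2+-Sen, and 9 rose and 4 fell in DDR-Sen. Their median log2 fold changes were 0.36, 0.41 and 0.43, where those of all genes lay between -0.04 and -0.01. ATF3, a stress-induced AP-1 partner, rose 11.5-fold in PMD-Sen, from 394 and 421 to 5650 and 3830, and 4.26-fold in Ca2+-Sen, to 1419 and 2175 (adjusted p = 8.96e-11 and 1.66e-06). BTG2, an antiproliferative p53 target, rose most in DDR-Sen, 4.26-fold, from 914 and 717 to 3003 and 4064 (adjusted p = 2.96e-13). SOCS3, an inhibitor of cytokine signaling, fell most in PMD-Sen, 3.71-fold (adjusted p = 7.66e-06), and FOSL1, an AP-1 subunit, fell most in Ca2+-Sen and DDR-Sen, 2.49-fold and 1.92-fold (adjusted p = 2.52e-10 and 2.38e-07).

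By day 16 fewer genes of this list were called, with 3 higher and 5 lower in PMD-Sen, 1 and 2 in Ca2+-Sen and 3 and 3 in DDR-Sen, and medians between -0.05 and -0.01. FOSL1 was still 2.49-fold lower in PMD-Sen and 2.66-fold lower in DDR-Sen (adjusted p = 1.75e-09 and 2.75e-10), and BTG2 2.01-fold and 2.08-fold higher (adjusted p = 1.55e-06 and 5.06e-07). In Ca2+-Sen JUND rose 1.45-fold and CCN1 fell 1.53-fold (adjusted p = 6.18e-05 and 0.0199). In RS 7 rose and 5 fell, led by CCN2, 1.88-fold higher at 28400 and 78730 against 22770 and 26800 (adjusted p = 0.0292), and by FOSL1, 2.09-fold lower (adjusted p = 2.3e-08).

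The corepressors of the EGR factors and the regulators upstream of the members split by inducer on day 0. Of 19 tested, 4 rose and 10 fell in PMD-Sen, 10 rose and 4 fell in Ca2+-Sen, and 4 rose and 6 fell in DDR-Sen, with medians of -0.39, 0.31 and -0.13. NAB2, a corepressor that EGR factors themselves switch on, fell most in PMD-Sen, 2.56-fold, from 2065 and 2139 to 794 and 847 (adjusted p = 3.22e-10), and CREM, a relative of CREB, rose most, 1.60-fold (adjusted p = 5.59e-06). In Ca2+-Sen CRTC2, a CREB coactivator released by calcium signals, rose most, 2.14-fold, from 772 and 828 to 1625 and 1818 (adjusted p = 3.75e-13), and MEF2C fell most, 3.60-fold (adjusted p = 2.29e-05). In DDR-Sen MEF2D rose 1.42-fold and SRF fell 1.44-fold (adjusted p = 0.000599 and 0.00142).

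On day 16, 2 of these regulators rose and 7 fell in PMD-Sen, 1 and 2 in Ca2+-Sen and 2 and 9 in DDR-Sen, and in RS 4 rose and 5 fell. CRTC1 rose most in PMD-Sen and RS (1.61-fold and 1.48-fold, adjusted p = 1.16e-05 and 6.89e-05) and MAPK3, the kinase ERK1, most in Ca2+-Sen and DDR-Sen (1.33-fold and 1.52-fold, adjusted p = 0.000140 and 2.16e-08). The largest falls were those of ATF1 in PMD-Sen (1.77-fold, adjusted p = 1.86e-05), ELK3 in Ca2+-Sen and DDR-Sen (1.34-fold and 1.71-fold, adjusted p = 0.0114 and 1.98e-06) and SRF in RS (1.57-fold, adjusted p = 0.000107).

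The other KLF, EGR and IER relatives showed no common direction. Of 14 tested, 4 rose and 5 fell on day 0 of PMD-Sen, 4 and 3 in Ca2+-Sen and 5 and 4 in DDR-Sen, with 5 and 2 in RS. KLF15 rose 7.3-fold in PMD-Sen, from 16.5 and 24.2 to 192 and 115 (adjusted p = 3.24e-06), KLF5 2.87-fold in Ca2+-Sen, from 944 and 949 to 2506 and 2973 (adjusted p = 4.55e-12), and IER5 1.64-fold in DDR-Sen (adjusted p = 1.65e-07). KLF12 fell 2.55-fold in PMD-Sen (adjusted p = 6.48e-09), KLF13 2.37-fold in Ca2+-Sen (0.00141) and KLF2, a relative of KLF4 known from quiescent cells, 2.39-fold in DDR-Sen (0.00115). On day 16, 3 rose and 6 fell in PMD-Sen, 0 and 2 in Ca2+-Sen and 4 and 4 in DDR-Sen. KLF2 was then the relative that fell most under each inducer, 3.32-fold, 1.98-fold and 4.10-fold (adjusted p = 0.000205, 0.0391 and 4.62e-05), at 248 and 162, 327 and 356, and 176 and 151 against 697 and 649 in untreated cells. KLF11 rose most in PMD-Sen (2.19-fold, adjusted p = 0.00106) and KLF8 in DDR-Sen and RS (2.82-fold and 2.77-fold, adjusted p = 0.0369 and 0.0305), and KLF12 fell most in RS (1.94-fold, adjusted p = 3.27e-07).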

How the data were processed

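mRNA of WI-38 cells was sequenced in 52 libraries, 2 for each of 26 groups. The submitters' processing notes name Trim Galore, HISAT2, HTSeq, featureCounts and DESeq2 and the build GRCh38 (hg38), with no versions. The deposited files hold 25 distinct tables, 1 for each senescent group against untreated cells, and the signal used here is the mean normalized count per gene that the authors computed in each comparison. The same tables hold the authors' own fold changes and p-values, which were neither used nor compared.

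Because a mean of 2 and 2 libraries is built from whole reads, the reads of each library were recovered from the printed digits. This settled 59400 of 59408 genes in the untreated libraries. In the other groups at least 98.66% of genes above 0 were settled, except on day 1 of DDR-Sen (89.7%), where many rows were printed with fewer digits. All simulated counts taken as settled were true for means printed at 15 or 10 digits. Rows printed with fewer digits were not simulated. Where only the mean of a pair was settled, it entered as 1 value with doubled weight. Recovered counts cannot be tied to replicate numbers.

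Counts were divided by median-of-ratios size factors over all 52 libraries. Genes with a mean of at least 10 over the groups (15625) were tested with limma 3.58.1 (voom, R 4.3.3), with 1 coefficient per group and Benjamini-Hochberg adjustment within each of 70 comparisons, 25 against untreated cells, 24 between inducers on the same day and 21 between consecutive days. p-values rest on 2 libraries a group, of 1 cell line, with 26 residual degrees of freedom. The fit was tried on simulated data for day 0 of KCl against untreated cells (15620 genes), with 200 genes changed and a dispersion of 0.02 for every gene. Of genes changed by a log2 fold change of 1, 61.6% were called, and of those changed by 2, 95%. Unchanged genes made up 8.24% of calls. Wider spreads, such as that of EGR1 on day 0 of PMD-Sen, were not simulated, so these shares need not hold for such members.

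Other scalings, filters, pseudocounts, samples in the fit, a fold rule and leaving out each library were tried, and the F test was added to these after the data were seen. All 10 members are named. From each list of related genes the called gene with the largest rise and the largest fall is named in each comparison described, and for each member the 2 other genes with the highest correlation, of which 1 is not reported here. The members and lists were chosen with earlier results of these data known.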

Additional observations from a re-analysis of the deposited data

Results flagged for a closer look

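For 8 of the 9 tested members the levels differed between the inducers over the 8 days by limma's moderated F, which takes 16 same-day differences together and tests the difference itself. The adjusted p was 2.47e-05 for KLF6, 3.3e-05 for KLF4, 0.000125 for NR4A1, 0.000414 for EGR1, 0.00205 for EGR2, 0.0146 for EGR3, 0.0149 for NR4A2 and 0.0467 for NR4A3. The same test called 82.1% of all tested genes.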

How the results depend on the processing

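Of 66 calls, 20 were kept without each of the 52 libraries in turn and 46 were lost without at least 1, where a lone library is assumed to vary like those of the other groups. The calls against untreated cells (8 higher and 14 lower) ranged from 4 to 14 and from 7 to 20 over these fits, the 28 same-day calls from 20 to 33, the 16 day-to-day calls from 11 to 22 and the 8 calls of the F test from 7 to 8. The fewest calls came without the deeper untreated library, the shallower untreated library, the deeper day 0 SDS library and the shallower day 1 SDS library for the first 4 counts. Of the 66 calls 1 changed sign, EGR1 between PMD-Sen and DDR-Sen on day 0, which was 0.084 without the shallower and -2.14 without the deeper SDS library. With no filter there were 9 lower calls. limma-trend called 22 higher and 24 lower with a pseudocount of 1, and 22 and 24 with a pseudocount of 5. Fits of only the groups compared called 24 higher, 38 lower, 57 on the same day and 39 between days. With a log2 fold change of at least 1 there were 5 higher, 5 lower and 10 between days, since the rule removes smaller changes. With a mean of at least 100 the F test called 5, since fewer members were tested. The cause of the other shifts was not tested. Library totals and trimmed means of M values shifted the median of all genes by at most 0.062 and 0.1 and each lost 1 of the 66 calls. No paired analysis was possible because the recovered counts carry no replicate numbers. The F test could not be run with only the groups compared or with the fold rule. The reads behind EGR2, EGR3 and IER3 limit what their values can show, and the untreated libraries, the shallowest, enter all 25 comparisons with untreated cells.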
